A study of Danio rerio with 12 samples.

Results

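The miR-196 microRNAs are small RNAs encoded inside the Hox clusters, the gene arrays that set position along the body axis. In mouse, miR-196 directs cleavage of Hoxb8 mRNA. In zebrafish it acts on Hox genes in axial patterning, and it also has a role in the start of the pectoral fins. Each hairpin can give a microRNA from its 5' arm (5p) and from its 3' arm (3p), and usually 1 of the arms is kept in the silencing complex while the other is lost. The entries described here are every mature microRNA in the deposited sense tables whose name begins with dre-miR-196. There were 5 of 326, namely miR-196a-5p, miR-196a-3p, miR-196b, miR-196c and miR-196d, and all 5 passed the filter on low counts (at least 10 CPM, that is counts per 1000000 microRNA counts of the library, in at least 3 libraries).

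Small RNA was sequenced from transgenic zebrafish raised at 28 °C, dissociated and sorted for GFP at 4 ages, namely 24, 48 and 72 hours (hpf) and 6 days (dpf) after fertilization. By title, 6 libraries were Endo and 6 were NoEndo, but the stain, tissue and source labels of both read GFP and endothelial. No source used here gives the transgene that drives GFP or says which cells the NoEndo sort held. Replicate 1 of both titles at 72 hpf held identical values and was left out. That left 5 Endo and 5 NoEndo libraries, with 2 per population at 48 hpf and 1 at every other stage. The labels do not tie replicates to separate clutches, so the p-values rest on the spread between these libraries alone. The part of it between replicates may be technical. In the tests of slopes with age and of populations, that spread also holds departures of the stages from the fitted line or from a common difference.

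Reads on mature microRNAs ran from 250084 in Endo at 6 dpf to 5028382 in NoEndo at 72 hpf. The 3 entries of miR-126, a microRNA of endothelial cells, summed to between 16093 and 94226 CPM in Endo and between 136 and 715 CPM in NoEndo, so the Endo title went with its defining marker in all 5 libraries. Scaling factors between libraries (TMM, edgeR) ran from 0.468 in Endo at 6 dpf to 2.37 in NoEndo replicate 2 at 48 hpf. Levels below are therefore given as CPM before this scaling, and tests used the scaled counts. These are bulk samples, so fewer cells of a type and less RNA per cell cannot be told apart.

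In the deposited Zv9 coordinates, miR-196a-5p had 2 copies, on the plus strand of chromosome 19 at 19213374-19213395 and of chromosome 23 at 36139655-36139676. miR-196a-3p was listed at a single place, chromosome 19 at 19213410-19213431, downstream of the first 5p copy. miR-196b lay on chromosome 3 at 23964628-23964649 (plus), miR-196c on chromosome 11 at 2162619-2162640 (minus) and miR-196d on chromosome 16 at 22997850-22997871 (plus). All of these entries span 22 bases. The gene table of the assembly GRCz12tu, used for names and gene order only, places a miR-196 gene on each of the same 5 chromosomes. There, mir196a-2 (chromosome 19) lies within the span of hoxa9a, and mir196a-1 (chromosome 23) lies between hoxc10a and hoxc9a, within the span of hoxc3a. mir196b lies between hoxb10a and hoxb9a, mir196c between hoxc11b and hoxc6b, and mir196d between hoxa10b and hoxa9b. Each locus sat among Hox genes, and all but mir196c between or inside paralogs of groups 9 and 10. Exons and introns in Zv9 were not analysed here.

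Nearly all reads of the 5p arm of miR-196a were listed at both copies. Each copy held 12754 reads over the 10 libraries, and within a library the copies differed by at most 5 reads, as in NoEndo at 72 hpf, or by 4 in Endo at 6 dpf, with 23 reads on chromosome 19 and 27 on chromosome 23. The adjusted counts divide each such read between its places, which left 6357 counts at each copy. Of the reads on miR-196b, miR-196c and miR-196d, the adjusted counts kept between 94.9% and 100% in each library, so few of them were shared with another place. Counts of the 3p arm refer to the chromosome 19 entry, while those of the 5p arm may come from either copy.

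miR-196a-5p was the most abundant of the 5 entries in every library used. In Endo, dre-miR-196a-5p stood at 947 CPM at 24 hpf, then at 1070 (replicate 1) and 1197 (replicate 2) at 48 hpf, 415 at 72 hpf and finally 108 at 6 dpf. In NoEndo it stood at 1308 CPM at 24 hpf, then at 1714 (replicate 1) and 1474 (replicate 2) at 48 hpf, 865 at 72 hpf and finally 155 at 6 dpf. Both populations were highest at 48 hpf on this scale and lowest at 6 dpf. After TMM scaling NoEndo was highest at 24 hpf instead, at 1448 normalised CPM against 1189 and 622 in the replicates at 48 hpf, which TMM set 1.91 times apart against 1.16 times before it. In Endo the 24 hpf value of 1079 normalised CPM then lay between those of the replicates at 48 hpf, 1103 and 947. From 48 hpf (replicates pooled) to 6 dpf the level was 10.4 times lower in Endo (95% interval 7.12 to 15.8) and 9.83 times lower in NoEndo (8.69 to 11.2). On normalised CPM these falls were smaller, 4.44 times in Endo and 3.31 times in NoEndo. These intervals and those below are exact (Clopper-Pearson) and cover counting error only.

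miR-196b was lower at each later stage. In Endo, dre-miR-196b was at 771 CPM at 24 hpf, 382 and 394 in the replicates at 48 hpf, 139 at 72 hpf and 36.0 at 6 dpf. The NoEndo libraries were at 772 CPM at 24 hpf, 434 and 456 in the replicates at 48 hpf, 145 at 72 hpf and 38.2 at 6 dpf. The replicates at 48 hpf differed by 1.03 times in Endo and 1.05 times in NoEndo. Between 24 hpf and 6 dpf the level was 21.4 times lower in Endo (11.1 to 47.4) and 20.2 times lower in NoEndo (15.6 to 26.6). After TMM scaling the same ratios were 11.4 and 12.7.

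miR-196c kept a similar order of stages. Endo libraries held 410 CPM at 24 hpf, 355 and 274 in the replicates at 48 hpf, 121 at 72 hpf and 32.0 at 6 dpf. NoEndo libraries held 531 CPM at 24 hpf, 290 and 252 in the replicates at 48 hpf, 106 at 72 hpf and 35.8 at 6 dpf. The ratio between 24 hpf and 6 dpf was 12.8 in Endo (6.32 to 30.3) and 14.8 in NoEndo (11.3 to 19.8), against 6.84 and 9.32 after TMM scaling.

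miR-196d, like miR-196a-5p, was lower at 24 hpf than at 48 hpf before TMM. In Endo it was at 30.8 CPM at 24 hpf, 117 and 118 in the replicates at 48 hpf, 35.2 at 72 hpf and 12 at 6 dpf, the last from 3 counts. In NoEndo it was at 69.4 CPM at 24 hpf, 147 and 179 in the replicates at 48 hpf, 79.7 at 72 hpf and 22.5 at 6 dpf. Both 48 hpf replicates lay above every other stage of their population on this scale. After TMM scaling this held in Endo, while in NoEndo the replicates at 48 hpf were at 102 and 75.6 normalised CPM, on either side of the 24 hpf value of 77.6 and with a mean of 88.9. Before TMM the level at 48 hpf was 3.81 times that at 24 hpf in Endo and 2.48 times in NoEndo, while miR-196b at 48 hpf was 0.501 and 0.584 times its level at 24 hpf. Taken as 24 over 48 hpf, the miR-196d ratio was 0.262 in Endo (0.124 to 0.492), from 10 counts at 24 hpf. In NoEndo it was 0.403 (0.293 to 0.552). From 48 hpf to 6 dpf the ratio was 9.80 in Endo (3.31 to 47.9) and 7.65 in NoEndo (5.52 to 10.9), and after TMM scaling it was 4.18 and 2.24.

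**Figure D1:**
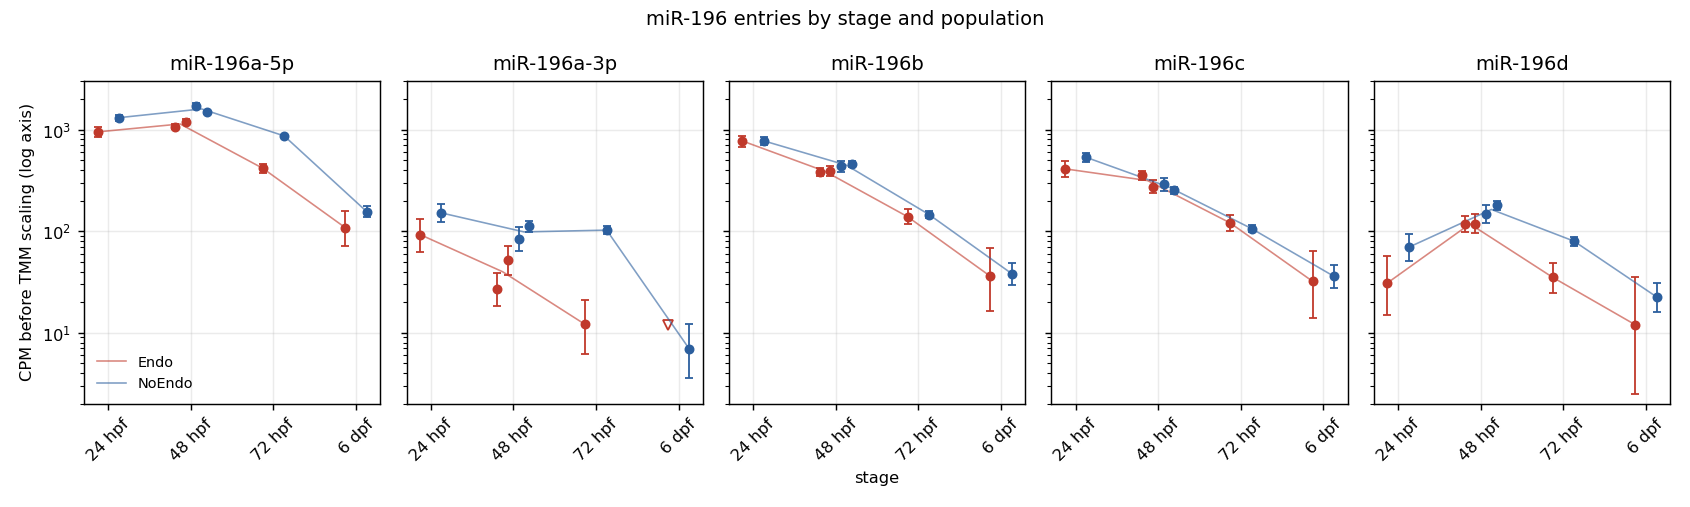
CPM before TMM scaling (log axis) of the 5 miR-196 entries by stage, with a point per library, 95% exact counting intervals and lines through the stage means, Endo in red and NoEndo in blue. The open triangle is the limit of 3 counts, 12 CPM, for miR-196a-3p in Endo at 6 dpf, where no read was counted. Before TMM, miR-196b and miR-196c are highest at 24 hpf and miR-196a-5p and miR-196d at 48 hpf, while after TMM scaling the mean of miR-196a-5p is highest at 24 hpf in both populations.

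The change with age was tested as a slope of log2 normalised CPM on log2 hours within each population, where 6 dpf is 144 hours, with edgeR's quasi-likelihood F test and Benjamini-Hochberg adjustment over all 265 microRNAs tested. In Endo, 5.66% of microRNAs passed in either direction and 2.64% had falling slopes that passed, against 1 of the 5 miR-196 entries. That entry was miR-196b, which fell by 1.41 on the log2 scale per doubling of age (SE 0.29, adjusted p = 0.0161), a fall of 2.65 times. In NoEndo, 15.1% of microRNAs passed in either direction and 6.79% had falling slopes that passed, against 2 of the 5 entries. There miR-196b fell by 1.43 (SE 0.26, adjusted p = 0.00668) and miR-196c by 1.24 (SE 0.29, adjusted p = 0.0207). The median slope was -1.14 over the 5 entries and -0.03 over all microRNAs in Endo, and -1.21 and 0.08 in NoEndo.

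The other slopes were negative and did not pass. For miR-196a-3p they were -2.10 in Endo (SE 0.55, edgeR adjusted p = 0.0515) and -1.21 in NoEndo (SE 0.43, edgeR adjusted p = 0.0837). They were -1.14 for miR-196c in Endo (SE 0.35, edgeR adjusted p = 0.0833) and, for miR-196a-5p, -0.97 in Endo (SE 0.35, edgeR adjusted p = 0.115) and -0.92 in NoEndo (SE 0.33, edgeR adjusted p = 0.0850). With DESeq2 size factors in edgeR the Endo slopes of miR-196a-3p (-2.23, adjusted p = 0.0323) and miR-196c (-1.21, adjusted p = 0.0416) passed. For miR-196d the slopes were -0.45 in Endo (95% interval -1.74 to 0.83) and -0.43 in NoEndo (-1.44 to 0.58), and the Endo value was 0.41 without the 6 dpf library. The slope of miR-196b no longer passed without the 24 hpf or the 6 dpf library of the same population, with edgeR adjusted p = 0.148 and 0.131 in Endo and 0.0720 and 0.0658 in NoEndo. Nor did that of miR-196c in NoEndo (edgeR adjusted p = 0.227 and 0.0717 without its 24 hpf and 6 dpf library). Sums of other microRNA lists moved with age too. Summed leukocyte entries (6 or 7 of 7 above 0 in each Endo library) were at 9721 CPM in Endo at 24 hpf and between 37631 and 62308 later. Most of that sum was miR-150. On normalised CPM, which is not the scale of the sum, miR-150 went from 8836 at 24 hpf to between 23699 and 131089 later. The value of 131089 was that of Endo at 6 dpf. It exceeds the sum only because normalised CPM is divided by that library's TMM factor of 0.468. On normalised CPM miR-146a, miR-146b and miR-155 were instead highest at 24 hpf in Endo, and miR-223 and miR-142a-3p moved both ways. The 12 striated muscle entries, 6 to 12 of them above 0, were at 10427 CPM in Endo at 24 hpf. They were between 9420 and 10506 CPM at 48 and 72 hpf and fell only at 6 dpf, to 2285. In NoEndo the striated muscle entries, 10 to 12 of them above 0, were at 34849 CPM at 24 hpf. They were between 12418 and 17667 CPM at 48 and 72 hpf and at 6310 CPM at 6 dpf. On normalised CPM miR-133a-3p, miR-133b-3p and miR-206-3p were highest at 24 hpf in NoEndo. But miR-1 was lower at 24 than at 72 hpf, at 109 and 341 in NoEndo and 42.2 and 161 in Endo. So was miR-499-5p, at 414 and 1367 in NoEndo and 141 and 278 in Endo. The part of these lists in the slopes was not tested.

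Whether the decline differed between the populations was tested as the difference of the 2 slopes. No microRNA passed (0% of 265 with edgeR, 12 at an unadjusted p under 0.05, and 1 with DESeq2). For miR-196b the slope in Endo minus that in NoEndo was 0.02 (95% interval -0.82 to 0.86). The difference was -0.05 for miR-196a-5p (-1.10 to 0.99), 0.10 for miR-196c (-0.90 to 1.11) and -0.03 for miR-196d (-1.62 to 1.57). For miR-196a-3p it was -0.89 (-2.53 to 0.75). Each of these intervals holds differences of 0.75 in either direction, so the test does not show that the populations declined alike.

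The steps between stages were also tested with 1 mean per population and stage, where the spread comes only from the replicates at 48 hpf. Between 24 and 48 hpf, 8.30% of microRNAs passed in Endo and 10.9% in NoEndo, and 0 of the 5 miR-196 entries passed in either, with edgeR adjusted p from 0.209 to 0.952 in Endo and from 0.120 to 0.902 in NoEndo. miR-196d had a step of 1.61 in Endo (SE 0.80) and 0.19 in NoEndo (SE 0.71) on the log2 scale. For miR-196b these were -1.32 (SE 0.64) and -1.79 (SE 0.64). From 48 hpf to the mean of 72 hpf and 6 dpf, 1.51% passed in Endo and 7.92% in NoEndo, again with 0 of the 5 entries. All 5 estimates were negative in both populations, from -1.61 for miR-196c to -5.15 for miR-196a-3p in Endo and from -0.73 to -1.47 in NoEndo. The value of -5.15 includes a library with no miR-196a-3p count, so its size is poorly set. Several of these steps passed when a term for the replicate number was added, as did many more of all microRNAs, as given in the section on processing. The replicates at 48 hpf then set both that term and the spread, which leaves little to estimate the spread from.

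miR-10 is another microRNA family known from the Hox clusters. In the GRCz12tu gene table mir10a, mir10b-1, mir10b-2 and mir10c lie among Hox genes, and mir10c and mir10b-2 share their chromosomes (3 and 23) with a miR-196 locus, while the neighbours of mir10d on chromosome 6 are not Hox genes. Of its 9 entries, 8 were tested. Between 24 and 48 hpf, 3 of the 8 fell in each population, namely the 5p arms of miR-10a, miR-10b and miR-10c, where 3.40% of all microRNAs fell in Endo and 7.17% in NoEndo. miR-10b-5p went from 1863 CPM at 24 hpf to 257 and 579 in the replicates at 48 hpf in Endo, and from 2764 to 397 and 1019 in NoEndo. On the log2 scale after TMM it fell by 2.55 in Endo (SE 0.58, edgeR adjusted p = 0.0359) and by 3.12 in NoEndo (SE 0.58, edgeR adjusted p = 0.0155). With total counts alone none of these 6 calls held (edgeR adjusted p from 0.0675 to 0.258), nor did they without replicate 1 or without replicate 2 of Endo at 48 hpf (0.0812 to 0.266). Over the whole course, falling slopes passed for 2.64% of all microRNAs in Endo and 6.79% in NoEndo. Of the 8 miR-10 entries, 1 fell in Endo (miR-10a-3p, slope -1.77, SE 0.42, edgeR adjusted p = 0.0330). In NoEndo 1 of the 8 fell (miR-10b-3p, slope -1.27, SE 0.31, edgeR adjusted p = 0.0227). The first was lost with total counts, with no filter and without any 1 of Endo at 24 hpf, 48 hpf (replicate 2), 72 hpf and 6 dpf or NoEndo replicate 1 at 48 hpf. The second was lost without the 24 hpf or the 6 dpf NoEndo library. The median slope over the 8 was -0.87 in Endo and -0.77 in NoEndo. Whether miR-196 and miR-10 differ in these steps or slopes was not tested.

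**Figure D2:**
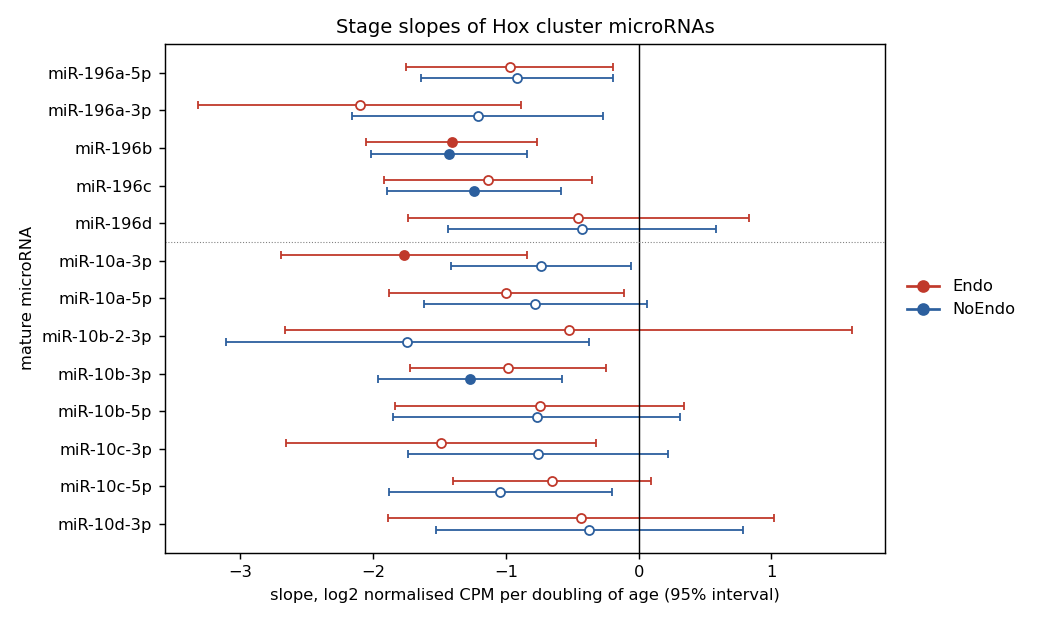
Slope of log2 normalised CPM per doubling of age (x axis, 95% interval) for the 5 miR-196 entries and the 8 miR-10 entries tested, Endo in red and NoEndo in blue, filled where the adjusted p is under 0.05. All 26 slopes are negative, and 5 of them passed: miR-196b in both populations, miR-196c and miR-10b-3p in NoEndo, and miR-10a-3p in Endo.

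Within the family the shares of the entries moved as well, and these do not depend on the scaling between libraries. miR-196b held 34.2% of the miR-196 counts in Endo at 24 hpf (95% interval 30.8 to 37.8) and between 19.1% and 19.6% in the 4 later Endo libraries. In NoEndo it held 27.3% at 24 hpf (25.2 to 29.4) and between 11.2% and 18.4% later. At 24 hpf miR-196b was thus above its later share in both populations, with intervals that do not overlap except with that of Endo at 6 dpf (9.15 to 33.3, from 47 miR-196 counts). miR-196d went the other way, from 1.37% in Endo at 24 hpf (0.659 to 2.50) to between 4.87% and 6.38% later, and from 2.45% in NoEndo (1.81 to 3.29) to between 5.52% and 8.71%. The 6.38% was that of Endo at 6 dpf, from 3 counts, and its interval (1.34 to 17.5) overlaps that at 24 hpf. miR-196a-5p held 42.1% and 46.2% at 24 hpf in Endo and NoEndo, and between 54.8% and 66.6% in the later libraries. The ratio of miR-196b to miR-196d was 25 at 24 hpf and 3 to 3.94 later in Endo, and 11.1 and then 1.69 to 2.95 in NoEndo. The ratio of 25 came from 250 and 10 counts, and that of 3, in Endo at 6 dpf, from 9 and 3 counts. There is 1 library of each population at 24 hpf, so these shifts have no replicate check at that stage.

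**Figure D3:**
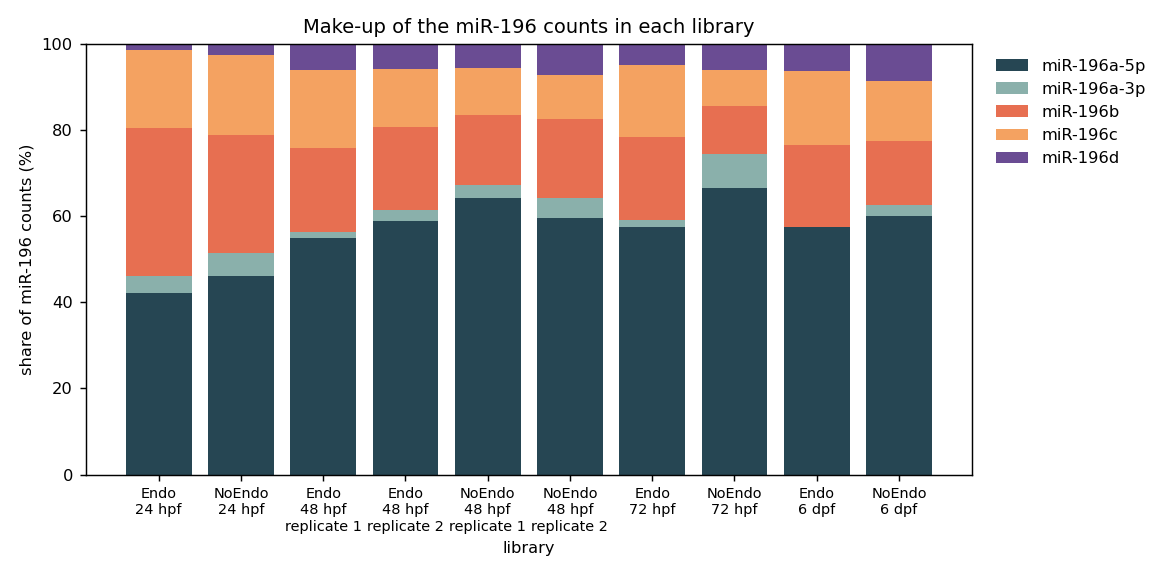
Share of the miR-196 counts (%) taken by each of the 5 entries in each of the 10 libraries, ordered by stage, with Endo before NoEndo. miR-196b takes 34.2% and 27.3% at 24 hpf and at most 19.6% later, and miR-196d at most 2.45% at 24 hpf and at least 4.87% later.

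Between the populations, 41.9% of the 265 microRNAs passed in edgeR with stage as a factor, and 0 of the 5 miR-196 entries did. After TMM scaling miR-196a-5p averaged 763 ± 396 CPM in Endo and 845 ± 469 in NoEndo (SD over libraries of 4 stages, n = 5), a log2 difference of -0.18 (95% interval -0.85 to 0.48). miR-196b averaged 363 ± 315 and 307 ± 319 CPM, a difference of 0.34 (-0.33 to 1.003), and the difference of miR-196c was 0.48 (-0.32 to 1.27). That of miR-196d was -0.34 (-1.25 to 0.57). The groups overlapped for all 5 entries, but this pools stages at which the levels differ. Before TMM, Endo was below NoEndo at each stage for miR-196a-5p, miR-196b and miR-196d, but not for miR-196c. For miR-196b the values were close, at 771 and 772 CPM at 24 hpf, 139 and 145 at 72 hpf, and 36.0 and 38.2 at 6 dpf. The counting intervals of miR-196b overlapped at each of these stages, and at 6 dpf those of miR-196a-5p and miR-196d did too. After TMM, Endo stayed below NoEndo at 24 hpf, 72 hpf and 6 dpf for miR-196a-5p and miR-196d, but not at 48 hpf. miR-196b was then higher in Endo at each stage, as with 879 against 855 normalised CPM at 24 hpf and 152 against 117 at 72 hpf. Scaled by total counts alone, the difference of miR-196b was -0.11, while the median over all microRNAs moved by -0.46, so that miR-196b stood 0.41 above that median against 0.40 with TMM.

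Of the 5 entries, miR-196a-3p had the largest log2 difference between populations. In Endo, dre-miR-196a-3p was at 92.5 CPM at 24 hpf, 27.2 and 52.5 in the replicates at 48 hpf, 12.1 at 72 hpf and 0 at 6 dpf, where a count of 0 allows up to 12 CPM (3 counts). In NoEndo it was at 151 CPM at 24 hpf, 84.4 and 112 in the replicates at 48 hpf, 102 at 72 hpf and 6.93 at 6 dpf. Endo was lower at 24, 48 and 72 hpf, and at 6 dpf the depth could not show a difference. The log2 difference of -1.18 did not pass (SE 0.51, edgeR adjusted p = 0.0779), and it was -0.74 without the 72 hpf Endo library and -0.79 without the 72 hpf NoEndo library. It passed with total counts alone (-1.66, edgeR adjusted p = 0.0260), with the DESeq2 Wald test (-1.20, adjusted p = 0.0245) and with the identical 72 hpf library kept as Endo (-1.36, edgeR adjusted p = 0.0360), but not with it kept as NoEndo (-1.10, edgeR adjusted p = 0.239). With total counts the median over all microRNAs was itself at -0.53. Relative to the median of each scaling, miR-196a-3p was at -1.136 with total counts and -1.115 with TMM. Epithelial and skin entries, 10 to 13 of 16 above 0 in Endo and 14 to 16 in NoEndo, summed to between 7089 and 34600 CPM in Endo and 72972 and 296310 CPM in NoEndo. Leukocyte entries summed to between 9721 and 62308 CPM in Endo and between 721 and 1405 CPM in NoEndo. Not all of them went that way. On normalised CPM at 6 dpf, miR-146a was at 94.0 in Endo and 257 in NoEndo, and miR-146b at 103 and 168. Both were also lower in Endo at 72 hpf, but higher in Endo at 24 and 48 hpf. Neural entries summed to between 4959 and 20757 CPM in Endo and between 7706 and 84181 CPM in NoEndo. The part of these lists in the difference was not tested.

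The balance of the arms can be read within a library, as the 5p counts of both copies over the 3p counts of the chromosome 19 entry. It is thus not the arm balance of a single hairpin. Per count of miR-196a-3p there were 10.2 counts of miR-196a-5p in Endo at 24 hpf, 39.4 and 22.8 in the replicates at 48 hpf and 34.5 at 72 hpf. Endo at 6 dpf had 27 counts of the 5p and none of the 3p arm. With the limit of 3 counts for the 3p arm its ratio would be 9 or more, leaving aside counting error in the 27. In NoEndo the ratio was 8.66 at 24 hpf, 20.3 and 13.2 in the replicates at 48 hpf, 8.46 at 72 hpf and 22.4 at 6 dpf. The 5p arm was the more abundant in all 10 libraries, and the widest gap among the stages with a 3p count in both populations was at 72 hpf. At 72 hpf there was 1 library per population, and the Endo ratio rests on 12 counts of the 3p arm. On log2 with 0.5 added to each count, and thus with a value for Endo at 6 dpf that its counts do not set, the balance was 4.79 ± 0.935 in Endo and 3.73 ± 0.644 in NoEndo (SD, n = 5), a difference that did not pass an exact two-sided permutation test over all 252 divisions (p = 0.0714, adjusted p = 0.143 over 2 balances). Without that library the difference was 0.81 (exact adjusted p = 0.246). With titles exchanged only within a stage the adjusted p was 0.0417, the smallest that such an exchange allows, in a test that counts Endo at 6 dpf as the highest ratio although its 3p arm had no count. Of the 10 ways to leave out 1 library, 1 passed, that without Endo at 24 hpf (exact adjusted p = 0.0317), and the others reached up to 0.302.

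The same reading was made for the most abundant pair, as the ratio of miR-196a-5p to miR-196b. It was 1.23 in Endo at 24 hpf, 2.80 and 3.04 in the replicates at 48 hpf, and 3 at both 72 hpf and 6 dpf. In NoEndo it was 1.69 at 24 hpf, 3.94 and 3.23 in the replicates at 48 hpf, 5.94 at 72 hpf and 4.07 at 6 dpf. The 24 hpf library was the lowest of its population in both, and NoEndo stood above Endo at each of the 4 stages. The mean log2 balance was 1.30 ± 0.563 in Endo and 1.80 ± 0.665 in NoEndo (SD, n = 5), with an exact permutation p of 0.246 over all 252 divisions (adjusted p = 0.246). Exchanged only within a stage the adjusted p was 0.0417, the smallest possible. Of the 10 ways to leave out 1 library, 1 passed over all divisions, that without NoEndo at 24 hpf (exact adjusted p = 0.0159), and the others reached up to 0.484.

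**Figure D4:**
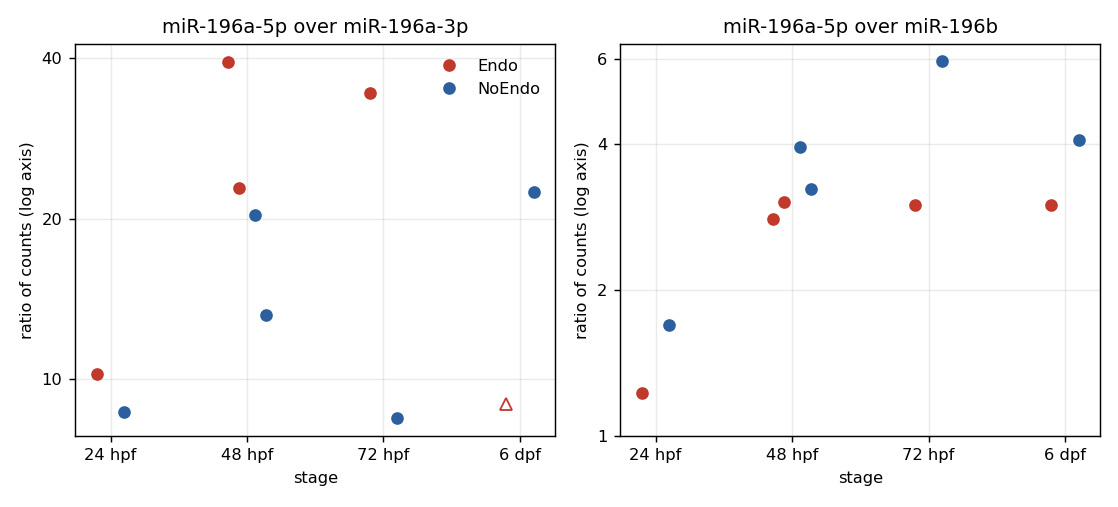
Ratio of miR-196a-5p to miR-196a-3p (left) and to miR-196b (right) in counts, on log axes, by stage, with a point per library, Endo in red and NoEndo in blue. The open triangle, at 9, sets the limit of 3 counts for the 3p arm of Endo at 6 dpf, which had no count. On the right both 24 hpf libraries, at 1.23 and 1.69, lie below all later ones.

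The entries also differed in which other microRNAs followed them across the 10 libraries, by Pearson correlation of log2 normalised CPM over 160 microRNAs with a mean of at least 100 CPM. These correlations are descriptions, since all points share libraries, depth and the course of age. The 3 closest to miR-196b were miR-430b-3p (r = 0.977), miR-430a-5p (0.964) and miR-430c-3p (0.961), whose family helps remove maternal mRNA early in zebrafish development. The 3 closest to miR-196a-5p were also of that family, miR-430b-5p (0.967), miR-430a-3p (0.952) and miR-430b-3p (0.911). For miR-196c they were a joint entry of 9 miR-430a and miR-430i 5p names (0.951), miR-10b-3p (0.9497) and miR-430a-5p (0.934). miR-196a-3p was closest to miR-2189 (0.957), miR-10a-3p (0.943) and miR-153b-3p (0.935). miR-196d had the weakest matches, miR-454b (0.796), miR-218a (0.785) and miR-17a-5p (0.690). Among the entries themselves, miR-196b and miR-196c were the closest pair (0.978) and miR-196b and miR-196d the most distant (0.424).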

How the data were processed

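Embryos were broken up with Liberase and sorted on GFP, and Trizol RNA went into TruSeq small RNA libraries, per the labels' protocols. STAR 2.3.0 and the build Zv9 come from the submitters' processing notes. How reads were trimmed, annotated and counted was not given in the sources used here. Per the file headers, each line is a genomic copy of a mature microRNA with its deposited read count (whole numbers, a shared read counted at each copy), its multi-mapping-adjusted expected count, and 2 RPM signal columns deposited by the authors, used only to recover the library totals (read count over RPM). No antisense line named a miR-196 entry.

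Expected counts were summed by name and rounded. The adjusted counts held 99.1% to 99.95% of the reads on mature microRNAs in the 10 libraries used. Intervals are at 95%. The test was edgeR 4.0.16 (R 4.3.3), robust quasi-likelihood, TMM, threshold 0.05. DESeq2 1.42.0 was an alternative. SE is the log2 value over the square root of F. The code was tested on simulated data. Named microRNAs were the miR-196 and miR-10 entries, the miR-126 markers, and the 3 closest by correlation (1 added before log2). Members and lists were chosen with earlier results of these data known. Alternatives were other scalings, no filter, unadjusted counts, a replicate term, no stage term, either use of the identical file and leaving out each library.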

Additional observations from a re-analysis of the deposited data

Results flagged for a closer look

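The replicate 1 library at 72 hpf, deposited with identical values under both titles, entered no comparison but held miR-196 counts above the limit of 3 counts for 3 of the 5 entries. There miR-196a-5p was at 92.99 CPM, miR-196b at 41.2 CPM and miR-196c at 45.1 CPM. The replicate 2 libraries at 72 hpf were at 415 and 865 CPM for miR-196a-5p, 139 and 145 for miR-196b, and 121 and 106 for miR-196c, in Endo and NoEndo. For these 3 entries, before TMM, the identical library was closer to the 6 dpf libraries, with 108 and 155, 36.0 and 38.2, and 32.0 and 35.8 CPM. This did not hold for every microRNA. miR-10c-5p was at 1803 CPM there, between the replicate 2 libraries at 72 hpf (1352 and 2197) and above those at 6 dpf (1264 and 543). The counts of miR-196a-3p and miR-196d there were 3 and 2.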

How the results depend on the processing

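Of 410 miR-196 values recomputed with 1 library left out, 379 kept their direction and side of the threshold, 17 turned direction, 8 newly passed and 6 no longer passed. The 6 losses fell on the slopes of miR-196b in both populations and of miR-196c in NoEndo, each called in 8 of 10 runs. These slopes were the only miR-196 results that passed with all 10 libraries, so most of the 379 had not passed at first. Of 181 under other settings, 147 kept both, 8 turned direction and 26 newly passed. Total counts alone moved the median of all microRNAs by -0.46 between populations, by -0.42 and -0.40 for the slopes in Endo and NoEndo, by 0.38 and 1.06 from 24 to 48 hpf, and by -0.79 and -1.19 from 48 hpf onward. The cause of the changes below was not tested. Between populations, 43 microRNAs were called with no stage term and 27 with the identical file kept as NoEndo, against 111. miR-196a-3p passed at -1.66 with total counts, -1.20 with the DESeq2 Wald test and -1.36 with the identical file kept as Endo, but was at -1.10 and did not pass with that file kept as NoEndo, and miR-196b was at -0.11 with total counts. For the Endo slope the calls numbered 27 with DESeq2 size factors and 53 with the Wald test, against 15. There miR-196a-3p passed at -2.23 with size factors, -2.155 with the Wald test and -2.11 with unadjusted reads, miR-196c at -1.208 with size factors and -1.21 with the Wald test, and miR-196a-5p at -1.03 with the Wald test. For the NoEndo slope there were 20 calls with total counts and 74 with the Wald test, against 40, and the Wald test passed miR-196a-3p at -1.26 and miR-196a-5p at -1.01. For the slope difference the Wald test made 1 call, miR-196b was at -0.018 with no filter and -0.053 with unadjusted reads, and miR-196d at 0.034 with size factors and 0.052 with the Wald test. From 24 to 48 hpf, total counts gave 13 calls in Endo and 14 in NoEndo (22 and 29 otherwise) and put miR-196a-5p at 0.26 and 0.29. From 48 hpf onward they gave 2 and 3 calls (4 and 21 otherwise). The balances of 1.05 and -0.50 passed when titles were exchanged only within a stage (exact adjusted p = 0.0417 for each).

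Replicate numbers recur in both populations at 48 hpf. The deviations of the 2 replicates correlated at 0.656 between populations, but the labels do not say what a number marks, so it is treated as a shared number only. With a replicate block the Endo slope had 23 calls and miR-196a-3p passed at -2.37 in Endo and -1.32 in NoEndo. With the same replicate block the steps from 24 to 48 hpf had 88 calls in Endo and 99 in NoEndo, with miR-196a-5p at 0.22 in Endo, and in NoEndo miR-196a-3p passed at -1.72, miR-196b at -1.58 and miR-196c at -1.59. From 48 hpf onward there were 75 calls of 265 in Endo, where miR-196a-3p (-5.15), miR-196a-5p (-1.66), miR-196b (-1.69), miR-196c (-1.565) and miR-196d (-1.75) passed. There were 121 of 265 in NoEndo, where miR-196a-5p (-0.99), miR-196b (-1.44) and miR-196c (-0.9954) passed.

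With each library left out in turn, calls between populations ran from 65 (without NoEndo at 72 hpf) to 120, with 70 without Endo at 72 hpf. Calls on the Endo slope ran from 3 (without Endo at 6 dpf) to 31 (without NoEndo at 24 hpf), with 5 without Endo at 24 hpf and 27 without NoEndo at 6 dpf, and those on the NoEndo slope from 3 (without NoEndo at 6 dpf) to 47. The Endo slope of miR-196a-3p ran from -2.94 to -1.825, that of miR-196b from -1.545 to -1.39 and that of miR-196d from -1.40 to 0.41. In NoEndo, miR-196a-3p ran from -1.445 to -0.76, miR-196b from -1.81 to -1.23 and miR-196c from -1.785 to -0.86. Slope differences ran from -0.44 to 0.28 for miR-196a-5p, -0.18 to 0.40 for miR-196b, -0.28 to 0.65 for miR-196c and -0.97 to 0.83 for miR-196d. From 24 to 48 hpf the calls ran from 0 (without either Endo replicate at 48 hpf) to 46 in Endo (45 and 46 without a NoEndo replicate at 48 hpf) and from 0 to 33 in NoEndo, miR-196a-5p from -0.19 to 0.031 in Endo and miR-196d from -0.028 to 0.47 in NoEndo. From 48 hpf onward the calls ran from 0 to 29 in Endo and 0 to 55 in NoEndo, with 0 again without either Endo replicate at 48 hpf or that population's 6 dpf library. In Endo there were 29 and 28 without NoEndo replicate 1 and 2 at 48 hpf, and 7 without Endo at 72 hpf. In NoEndo there were 55 without its replicate 1 at 48 hpf, and 53 and 13 without NoEndo and Endo at 72 hpf. There miR-196a-5p ran from -2.51 to -1.16 in Endo and miR-196a-3p from -2.10 to 0.65 in NoEndo. The arm balance ran from 0.81 to 1.42 and the member balance from -0.76 to -0.25. The step from 24 to 48 hpf cannot be estimated without that population's 24 hpf library. Depth limits Endo at 6 dpf most, where 47 counts fell on miR-196.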
